A study of Mus musculus with 4 samples.

Results

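The comparison asked how far the response of the intestinal mucosa to a high-fat diet differed between 2 inbred mouse strains. A/J mice are known to resist diet-induced obesity, and C57BL/6J mice are known to become obese on the same kind of food. All mice were males, 10 weeks old, that had spent 2 weeks on low-fat or on high-fat food. Each of the 4 combinations of strain and diet was a group of 6 mice. From each group 2 mice near the mean weight gave mucosal RNA, which was combined and read on 1 Affymetrix Mouse Expression Array 430A. All 4 of the 4 arrays entered the comparison. There is 1 array per group and therefore no replicate, no error and no test: a strain by diet term fitted to 4 arrays leaves 0 residual degrees of freedom. Every difference below is a difference between pools of 2 mice, and the spread between mice of a group was not measured.

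For each gene the diet ratio of a strain is its signal on the high-fat array over its signal on the low-fat array. The quantity reported is log2 of the A/J diet ratio minus log2 of the C57BL/6J diet ratio, called the difference of diet ratios. It is positive where A/J had the higher ratio. Signals were scaled so that the 2% trimmed mean of each array was 500, and a signal below a floor of 100 counted as 100 in ratios. Of 12393 genes named on the array, 8036 had a mean scaled signal of at least 100 and were measured, each by its brightest probe set. Where a signal lay under the floor, the difference is given as a lower bound ("at least") or as not determined.

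In the small intestine, enterocytes take up fatty acids, cholesterol and fat-soluble vitamins, burn a part of the fatty acids in mitochondria and peroxisomes, and export the rest as triglyceride in chylomicrons. PPAR-alpha, a nuclear receptor that binds fatty acids, switches on the genes of fatty acid oxidation when dietary fat rises. T cells lie between the enterocytes as intraepithelial lymphocytes. Interferons, secreted on contact with viruses and microbes, switch on a large set of antiviral genes.

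The pools differed in ways the strain and diet labels do not name. Here and below, 4 signals in a row are those of the A/J pools, low-fat before high-fat, followed by those of the C57BL/6J pools in the same order of diets. For 18S ribosomal RNA, the 5′ probe set read 218, 84.4, 11010 and 1675, highest by far in C57BL/6J on low-fat. The summed signal of 23 measured pancreatic acinar genes, most of which are not known as products of the intestine, was 165424, 40934, 177774 and 245172, lowest in A/J on high-fat. The summed signal of 16 gastric genes on the array was 6086, 4502, 4161 and 11553, highest in C57BL/6J on high-fat. The summed signal of 28 T cell genes was 7075, 8057, 18616 and 10961, highest in C57BL/6J on low-fat. By contrast, 23 intestinal epithelial genes had similar sums on every array, at 237212, 240810, 243630 and 249743. The sum of the listed hepatocyte genes stayed between 825 and 983. In pooled tissue, fewer cells of a type and less RNA per cell cannot be told apart.

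The diet ratio was at least 2-fold higher in A/J than in C57BL/6J for 137 genes, 1.7% of the 8036 measured. It was at least 2-fold lower for 171 genes, or 2.13%. The 308 genes together are 3.83%. These counts use signals under the floor as 100. Of the 137 genes, 21 are lower bounds and 7 are not determined, and of the 171 genes, 46 and 7. The genes not determined cannot be said to be 2-fold apart. At 1.5-fold, the line used for gene lists below, 8.79% of all measured genes had the higher ratio in A/J and 8.89% the lower one. The median difference over all genes was 0.02 on the log2 scale and the SD across genes was 0.55. The share of genes 2-fold apart was 5.65% at mean signals of 100 to 300, 3.32% at 300 to 1000 and 2.22% from 1000 up, so that dim genes cross the line more often. The split between the directions moved with the scaling: 44.5% of the 2-fold genes were higher in A/J here, 52.4% after quantile normalization and 65% with no scaling, where the median gene itself sat at 0.12.

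Most of the 308 genes reached a 1.5-fold diet ratio in a single strain only. The ratio was 1.5-fold or more in A/J alone for 127 of the 308 and in C57BL/6J alone for 102. The ratio of the other strain, under 1.5-fold, could still run the opposite way and add to the difference. Cd3d, a T cell gene, was 2.06-fold lower on high-fat in C57BL/6J and 1.47-fold higher in A/J. For 4 genes the ratios had the same direction and different sizes, and for 16 neither strain reached 1.5-fold. The remaining 59, 0.734% of measured genes, had ratios of at least 1.5-fold in opposite directions, 21 of them higher in A/J and 38 lower. Without the pancreatic acinar and gastric genes 42 remained, 21 each way. As background, the share of measured genes past 1.5-fold was 4.99% upwards and 4.7% downwards for the A/J ratio, and 5.13% and 4.63% for the other strain.

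**Figure D1:**
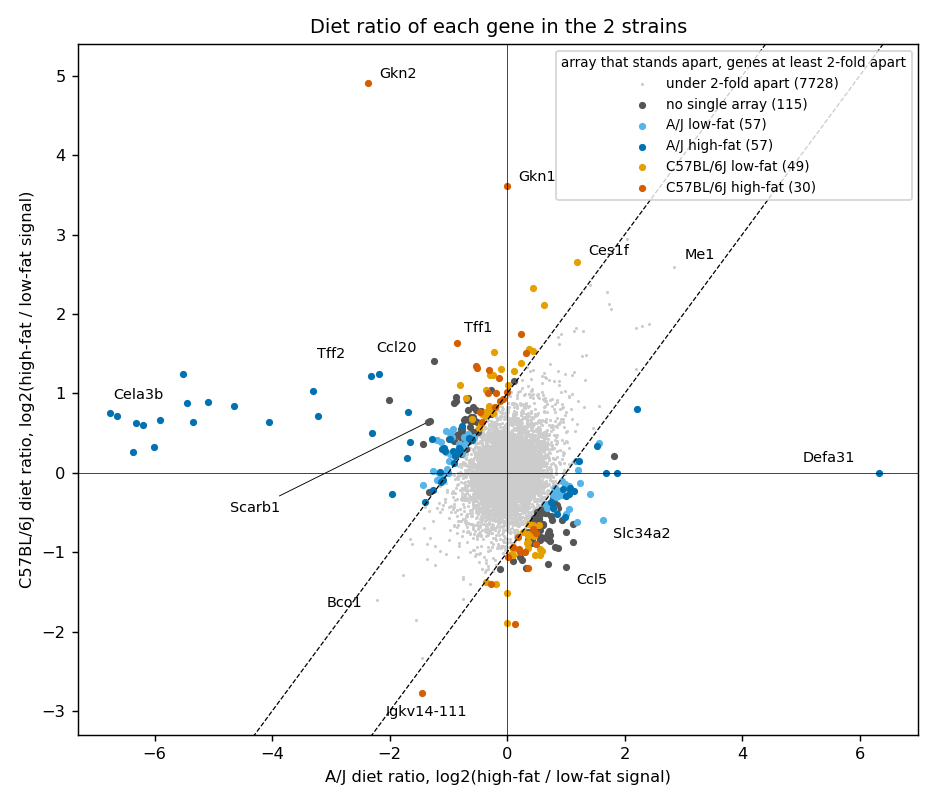
Each point is a gene, with log2 of the high-fat over low-fat signal in A/J on the x axis and in C57BL/6J on the y axis, 1 array per group. The dashed lines mark a 2-fold difference between the strains, and the 308 genes on or beyond them are coloured by the array that stood apart from the other 3, with 57 genes for each of the A/J arrays, 49 and 30 for C57BL/6J on low-fat and on high-fat, and 115 with no single array.

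Which single array carried a difference needs a convention, since the same 4 numbers enter every difference with equal weight. An array was said to stand apart when the other 3 lay closer to each other, on the log2 scale, than the nearest of them lay to it. By that rule 1 array stood apart for 193 of the 308 genes, and for 49.6% of all measured genes. For A/J it was the low-fat array in 57 genes (high in 31 and low in 26) and the high-fat array in another 57 (high in 15 and low in 42). For C57BL/6J it was the low-fat array in 49 (23 and 26) and the high-fat array in 30 (17 and 13). For the other 115 genes no array stood apart by this rule. Over all measured genes the shares, in the order of arrays given above, were 14.3%, 11.4%, 14.2% and 9.66%. Among the 308 they were 18.5%, 18.5%, 15.9% and 9.74%. Once the acinar and gastric genes were left out, A/J high-fat stood apart for 37 of 284, or 13%. Both low-fat arrays then led, with 57 genes for A/J and 49 for C57BL/6J.

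**Figure D2:**
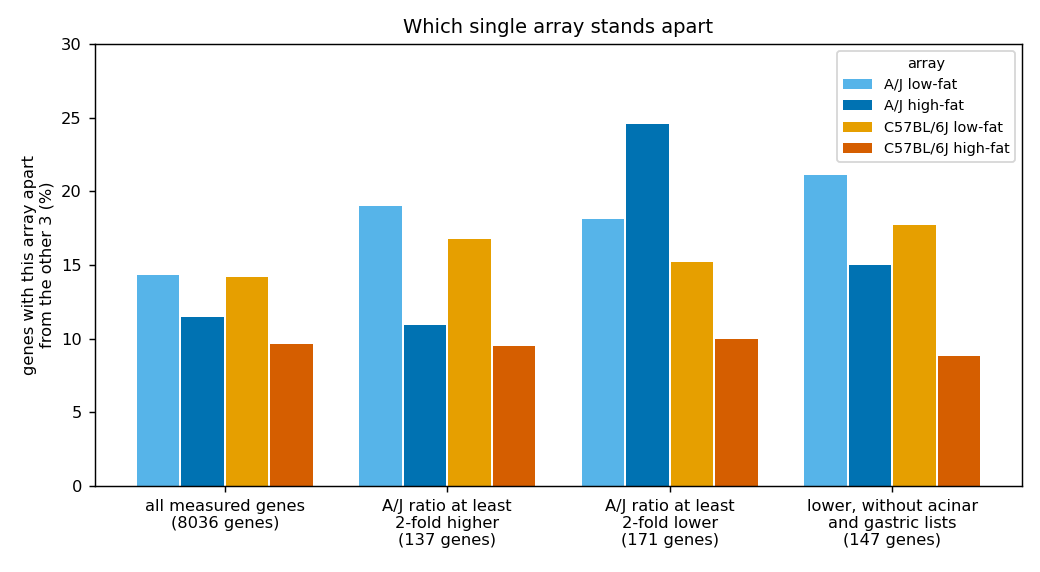
Bars give the percent of genes, on the y axis, for which each of the 4 arrays stood apart from the other 3, for all 8036 measured genes, the 137 genes with an A/J diet ratio at least 2-fold higher, the 171 at least 2-fold lower and the 147 of these outside the acinar and gastric lists. A/J high-fat is the leading array in the lower group, at 24.6%, and stands at 15% once those lists are left out.

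The largest differences in the data were in digestive enzymes of the exocrine pancreas, and 1 array carried most of their size. Of the 29 genes at least 4-fold apart, 25 were lower in A/J, and 22 of these 25 were acinar or gastric. Cela3b, a pancreatic elastase, read 10903, 91.4, 12787 and 21518, a difference of -7.52 or lower, which is at least 183-fold. Cpa1, carboxypeptidase A1, read 9945, 17.4, 8604 and 14176, a difference of -7.36 or lower. Clps, colipase, the cofactor of pancreatic lipase, read 7115, 764, 7292 and 11935, a difference of -3.93. In all 3 the A/J high-fat array was low by itself. The other 3 lay within 1.97-fold of each other, with C57BL/6J high-fat the highest. The list repeats this: 19 of 23 measured acinar genes were at least 2-fold lower in A/J, against 2.13% of all genes. The median difference was -5.50, and A/J high-fat stood apart in 20 of 23, against 11.4% of all genes. The list's median diet ratio was -4.65 in A/J, against 0.63 for the other strain. The 4 members left over were Reg1 (23900, 18634, 24366 and 21562), a regenerating protein, Dmbt1, Spink1 and Prss3, with differences between -0.18 and 0.03. The first 3 of these are bright on every array, and the intestine is known to make Dmbt1.

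A second group belongs to the stomach, and more than one array enters it. Gkn2, a gastrokine of surface mucous cells, read 517, 39.2, 38.1 and 3001, a difference of -7.28 or lower. Tff1, a trefoil peptide that protects the gastric surface, read 1971, 1090, 1276 and 3965, a difference of -2.49. Gkn1 read 98.4, 8.41, 8.30 and 1220, and its size is not determined because 3 signals were under the floor. C57BL/6J high-fat was the high array in these 3 genes. Tff2, the trefoil peptide of mucous neck cells, read 501, 17.4, 541 and 1260, and there A/J high-fat was the low one, as for the enzymes. Atp4b, a subunit of the acid pump of parietal cells, read 199, 131, 93.2 and 109, with its highest signal on A/J low-fat. Of 11 measured gastric genes 6 had an A/J ratio 1.5-fold or more below that of C57BL/6J and 2 had one above, with a median of -0.74, against 8.89% and 8.79% of all genes. C57BL/6J high-fat stood apart in 4 of the 11, A/J high-fat in 3 and each low-fat array in 1. The list's median depends on its dim members and was 0.00 with a floor of 200. How far pieces of pancreas or stomach in the pools entered other differences was not tested.

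T cell genes had the highest median difference among the lists with at least 8 measured genes. Of 21 measured members, 11 had an A/J diet ratio at least 1.5-fold above that of C57BL/6J and none had one below, where all genes gave 8.79% and 8.89%. The difference was positive in 20 and negative in 1, Cd4 (-0.37), and the median was 0.59 against 0.02 for all genes. Its median diet ratio was 0.08 in A/J, against -0.67 for the other strain. In C57BL/6J 14 of the 21 were at least 1.5-fold lower on high-fat, against 4.63% of all genes. C57BL/6J low-fat stood apart in 9 members, compared with 14.2% of all genes. The T cell sum, also highest on that array, adds the signals of these same listed genes and is no separate observation. On that array 18S read 11010, and its part in these values was not tested.

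Ccl5, a chemokine made by activated T cells, read 743 and 1480 in A/J, and 4275 and 1871 in the other strain. It was 1.99-fold higher on high-fat in A/J and 2.29-fold lower in C57BL/6J, a difference of 2.19. No single array stood apart, because A/J low-fat was low and C57BL/6J low-fat was high at once. Gzmb, granzyme B of cytotoxic cells, had the same form, at 351, 581, 1542 and 848, a difference of 1.59. Cd3d, a chain of the T cell receptor complex, read 167, 245, 443 and 216, a difference of 1.60, and here C57BL/6J low-fat stood apart alone. The same array stood apart for Cd8a, the co-receptor of cytotoxic T cells, at 235, 302, 451 and 288, a difference of 1.01. A second Cd8a probe set gave 1.42, but both its A/J signals (71.5 and 86.1) were under the floor, so that size is not determined. C57BL/6J low-fat also stood apart for Lat, an adaptor of the T cell receptor, at 85.1, 151, 258 and 131, a difference of at least 1.58. Klrd1, a receptor of natural killer cells, differed by 1.11 and Nkg7, a granule protein of killer cells, by 1.10, both with no single array. Gzma, granzyme A, with 810, 907, 5190 and 3352, was far higher in C57BL/6J on both diets and differed by 0.79.

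Interferon-induced genes were for the most part lower on high-fat, and more members were so in C57BL/6J. Of 36 measured members, 23 were at least 1.5-fold lower on high-fat in C57BL/6J and 9 in A/J, against 4.63% and 4.7% of all genes. None was 1.5-fold higher in either strain. The median diet ratio was -0.69 in C57BL/6J and -0.29 in A/J. Differences of at least 1.5-fold numbered 11 in the direction of A/J and 1 in the other, Cxcl10 (-0.69), against 8.79% and 8.89% of all genes, with a median of 0.38. C57BL/6J low-fat stood apart in 13 of 36, against 14.2% of all genes. Rsad2, the antiviral enzyme viperin, read 1946, 2233, 4639 and 2361, a difference of 1.17 with C57BL/6J low-fat high by itself. The other Rsad2 probe sets gave 0.59 and 0.44. Ifih1, the RNA sensor MDA5, read 1326, 1296, 5779 and 2936, a difference of 0.94 with no single array, as both C57BL/6J signals were higher. Dhx58, a related RNA helicase, read 238, 185, 660 and 255, a difference of 1.01 carried by C57BL/6J low-fat, but its further probe sets gave -0.60 and -0.14. Ubd, a ubiquitin-like protein induced by interferon-gamma, read 431, 936, 2180 and 1193, a difference of 1.99 with no single array. At the other end, Ifit1, which binds viral RNA, read 3533, 2195, 5095 and 3163 and had the same ratio in both strains, a difference of 0.00.

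The promoters of these genes are shown because the list is defined by a shared regulator. Interferon acts through a response element with the core letters GAAANNGAAA, searched here on both strands, with overlapping matches counted separately. The windows are from RefSeq (GRCm38.p6), 250 bases before to 50 after the transcription start, read 5′ to 3′ on the gene's strand, with matches in capitals. Rsad2 lies at chr12:26456403-26456702 (minus strand), Ifih1 at chr2:62646206-62646505 (minus strand) and Ifit1 at chr19:34640639-34640938 (plus strand).
Rsad2: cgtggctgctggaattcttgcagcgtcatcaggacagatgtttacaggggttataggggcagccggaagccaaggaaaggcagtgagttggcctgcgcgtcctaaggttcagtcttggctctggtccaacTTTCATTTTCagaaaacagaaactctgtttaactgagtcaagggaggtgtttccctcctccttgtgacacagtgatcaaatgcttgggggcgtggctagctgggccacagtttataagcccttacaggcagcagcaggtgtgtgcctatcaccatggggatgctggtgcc
Ifih1: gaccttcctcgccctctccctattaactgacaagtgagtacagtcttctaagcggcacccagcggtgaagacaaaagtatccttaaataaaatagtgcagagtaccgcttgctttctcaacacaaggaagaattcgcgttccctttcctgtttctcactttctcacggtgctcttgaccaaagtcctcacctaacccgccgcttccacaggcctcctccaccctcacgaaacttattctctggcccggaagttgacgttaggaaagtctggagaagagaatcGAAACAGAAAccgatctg
Ifit1: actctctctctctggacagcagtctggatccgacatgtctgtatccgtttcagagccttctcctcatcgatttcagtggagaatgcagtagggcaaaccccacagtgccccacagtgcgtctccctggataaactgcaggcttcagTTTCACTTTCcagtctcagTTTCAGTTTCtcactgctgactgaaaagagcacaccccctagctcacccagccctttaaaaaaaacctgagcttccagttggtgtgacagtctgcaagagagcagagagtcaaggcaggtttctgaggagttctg
Rsad2 and Ifih1 held 1 match each and Ifit1 held 2. The letters occurred in 3.44% of all 32851 promoter windows, in 265 of 6538 measured genes with a window (4.05%) and in 16 of 28 measured interferon-induced genes with one (57.1%). Within the list, the difference of diet ratios had a median of 0.22 in the 16 genes with a match and 0.31 in the 12 without. The match was thus present both in Rsad2, which differed by 1.17, and in Ifit1, which differed by 0.00.

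Other immune groups were mixed. MHC class II genes, which present antigen, had a median of 0.47 over 9 genes. C57BL/6J high-fat stood apart, low, in 4 of them, against 9.66% of all genes. Cd74, the invariant chain, read 7069, 8205, 6707 and 5306, a difference of 0.55. H2-Ab1 reached 0.80, from 1331, 1484, 2536 and 1624, with C57BL/6J low-fat apart. By the brightest probe sets it was the only member past 1.5-fold. Further H2-Ab1 probe sets gave 0.05 and 0.82, and a second probe set of H2-Aa gave 1.18. B cell and plasma cell genes had a median of 0.00, from Ms4a1 (CD20), with an A/J ratio 2.83-fold that of C57BL/6J, to Ighm at -1.34. Ighm, the IgM heavy chain, cannot be given a direction: of its 5 further probe sets with a mean signal of at least 100, 4 gave positive values, from 0.32 to 1.30. Macrophage and dendritic cell genes had a median of 0.01. Ccl20, a chemokine that draws dendritic cells and lymphocytes to the epithelium, went the other way from Ccl5: it read 482, 203, 1040 and 2768, 2.38-fold lower on high-fat in A/J and 2.66-fold higher in C57BL/6J. Its difference of -2.66 was the lowest outside the pancreatic and gastric genes with all signals above the floor, and no single array stood apart.

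**Figure D3:**
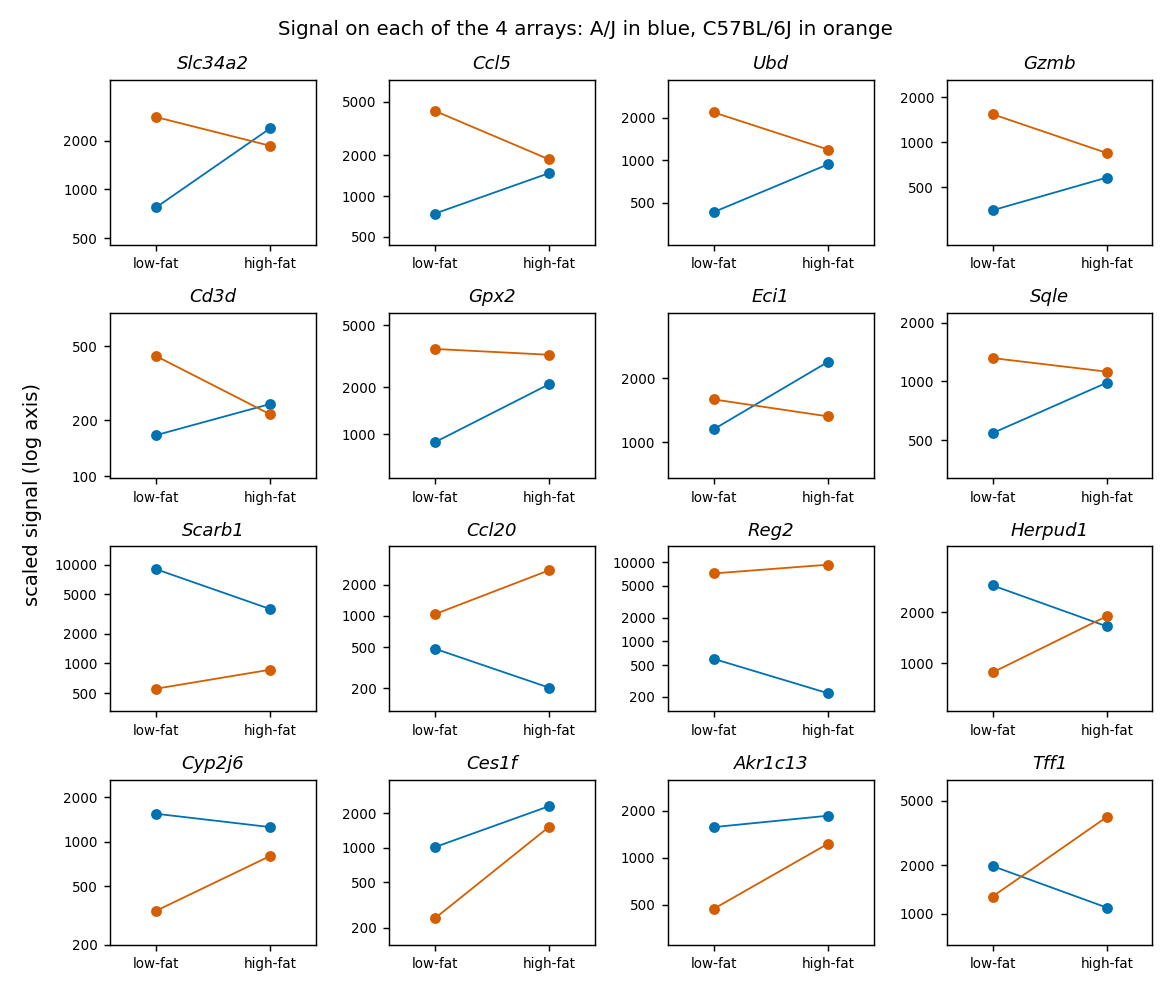
Scaled signals of 16 genes on a log axis, with diet on the x axis, A/J in blue and C57BL/6J in orange, 1 array per point. Crossing or converging lines show how the arrays combine: the 2 strains meet on high-fat for Ccl5 (1480 and 1871), Cd3d (245 and 216) and Ces1f (2303 and 1520) and move apart for Ccl20 (203 and 2768).

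Genes that take up and convert carotenoids and vitamin A had the lowest median difference of the 28 lists of gene function. Of 15 measured members, 8 had an A/J diet ratio at least 1.5-fold below that of C57BL/6J and none had one above by that much, against 8.89% and 8.79% of all genes. The median was -0.61, and -0.33 with a floor of 200. Their median diet ratio was 0.04 in A/J, against 0.41 for the other strain. Scarb1, the scavenger receptor that takes up carotenoids, vitamin E and cholesterol, read 9018 and 3553 in A/J, and 554 and 863 in the other strain. The signal was much higher in A/J on both diets, 2.54-fold lower on high-fat in A/J and 1.56-fold higher in C57BL/6J. The difference was -1.98, with no single array, and 2 further probe sets gave -2.09 and -1.59. Bco1, which splits beta-carotene into retinal, read 9248, 1995, 662 and 218. It was lower on high-fat in both strains, so that its difference was only -0.61. Lrat, which esterifies retinol for storage, read 624, 516, 131 and 200, a difference of -0.89. Aldh1a1, which oxidises retinal to retinoic acid, was higher on high-fat in both strains, at 3277, 6206, 1023 and 3424. It differed by -0.82 because C57BL/6J low-fat was the low array. Rbp2, the retinol-binding protein of enterocytes, read 17105, 18250, 10382 and 17045, a difference of -0.62, again with C57BL/6J low-fat low. Rara, a retinoic acid receptor, was the one member near 1.5-fold in the other direction, at 0.58.

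Several enzymes of detoxification also had a low signal on C57BL/6J low-fat. Of 33 conjugating enzymes and carboxylesterases, 8 had an A/J ratio lower by 1.5-fold or more and 1 had a higher one, against 8.89% and 8.79% of all genes, with a median of -0.23. C57BL/6J low-fat stood apart in 13 of 33, against 14.2% of all genes. Ces1f, a carboxylesterase, read 1011, 2303, 241 and 1520. It was 2.28-fold higher on high-fat in A/J and 6.30-fold in C57BL/6J, a difference of -1.47. Akr1c13, an aldo-keto reductase, read 1573, 1860, 471 and 1230, a difference of -1.14. Gstm1, a glutathione transferase, read 949, 892, 531 and 942, a difference of -0.92, and its further probe sets gave -0.87 and -0.68. Among 12 cytochrome P450 genes the median was -0.25 and 11 were negative. Of the 12, 3 were past 1.5-fold downwards and 1 upwards, against 8.89% and 8.79% of all genes. C57BL/6J low-fat stood apart in 3, against 14.2% of all genes. Cyp2c55, which oxidises arachidonate, had the lowest value of these, -1.83, from 266, 145, 288 and 556, with no single array. Cyp3a13, a xenobiotic oxidase, read 7399, 3903, 8710 and 7459, a difference of -0.70 with A/J high-fat low. Cyp2j6, an arachidonate epoxygenase family member, read 1547, 1256, 340 and 800, a difference of -1.54. Ces1f, Akr1c13, Gstm1 and Cyp2j6 had their lowest signal on C57BL/6J low-fat, which stood apart in each. Cyp1a1, induced by ligands of the aryl hydrocarbon receptor, stood on the other side with 56.8, 54.9, 586 and 206: it lay under the floor in A/J, so the size is not determined.

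Genes of fatty acid oxidation and triglyceride synthesis had a median difference near 0, and those of fatty acid uptake had one below 0. PPAR-alpha targets had a median diet ratio of 0.78 in A/J and 0.55 in C57BL/6J, and 15 and 12 of 26 reached 1.5-fold in favour of high-fat. The median difference was 0.02, and 0.22 with a floor of 200. Past 1.5-fold were 1 member upwards and 2 downwards, against 8.79% and 8.89% of all genes. Me1, the malic enzyme that supplies NADPH, read 381, 2712, 180 and 1087, 7.11-fold higher in A/J and 6.04-fold in C57BL/6J. Cpt1a, which admits fatty acids to mitochondria, read 1726, 3039, 966 and 1764, a difference of -0.05. Pdk4, the kinase that spares glucose, read 409, 1331, 67.3 and 483, a difference of -0.57 or lower. Medians were as close to 0 for mitochondrial beta-oxidation (0.03, 23 genes), peroxisomal oxidation (-0.05, 24 genes), triglyceride synthesis and chylomicrons (-0.06, 25 genes), lipogenesis (0.00, 17 genes) and the tricarboxylic acid cycle (0.02, 20 genes, none past 1.5-fold). The 12 genes of fatty acid uptake and binding had a median diet ratio of 0.08 in A/J, against 0.42 for the other strain, and a median difference of -0.21. It was negative in 10 of the 12. Past 1.5-fold were 3 downwards (Scarb1, Cav1 and Slc27a2) and 0 upwards, where all genes gave 8.89% and 8.79%. C57BL/6J low-fat stood apart in 6, against 14.2% of all genes. With a floor of 200 the median was -0.12.

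Within these lists a few members departed from the median. Acadl, a long-chain acyl-CoA dehydrogenase, read 4742, 7280, 1661 and 3973, a difference of -0.64. Acaa2, the thiolase of the same pathway, differed by -0.62, and Slc27a2, a very long-chain acyl-CoA synthetase, by -0.65. Dgat2, which completes triglyceride, read 8708, 6831, 4503 and 6351, a difference of -0.85, and a second probe set gave -1.27. In these 4 C57BL/6J low-fat was the low array. Eci1, an isomerase for unsaturated fatty acids, went the other way, with 1151, 2391, 1592 and 1324, a difference of 1.32. Ech1, an isomerase for dienoyl intermediates, read 2664, 5084, 2805 and 3162, a difference of 0.76. In both, A/J high-fat was high by itself. Cav1, caveolin-1 of endothelium and adipocytes, read 381, 184, 182 and 261, a difference of -1.57, with A/J low-fat high.

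Cholesterol synthesis, cell division and the translation machinery had positive medians. The 19 cholesterol synthesis genes centred on 0.21, and on 0.08 with a floor of 200. Of the 19, 4 were past 1.5-fold upwards and 2 downwards, against 8.79% and 8.89% of all genes. A/J low-fat stood apart, high or low, in 8 of 19, against 14.3% of all genes. Sqle, squalene epoxidase, read 543, 984, 1316 and 1121, a difference of 1.09. Pmvk, phosphomevalonate kinase, read 151, 290, 429 and 352, a difference of 1.22. In both, A/J low-fat was low and the other 3 arrays were near each other. Dhcr7, the last enzyme of the pathway, opposed them at -0.68, from 929, 570, 471 and 461, with A/J low-fat high. The list therefore held members on either side of 0.

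The 30 proliferation genes centred on 0.30, 5 past 1.5-fold upwards and 1 downwards, against 8.79% and 8.89% of all genes. A/J low-fat stood apart in 7 of the 30, against 14.3% of all genes. Cdc20, an activator of the anaphase-promoting complex, read 394, 618, 701 and 563, a difference of 0.96. Cenpa, the histone of centromeres, read 159, 262, 266 and 202, a difference of 1.11. Oxidative phosphorylation genes had a median of 0.25, against 0.02 for all genes, and 37 of 46 were positive. Past 1.5-fold were 6 upwards and 0 downwards, against 8.79% and 8.89% of all genes. None of the 46 reached 2-fold, where all genes gave 1.7% upwards and 2.13% downwards. C57BL/6J low-fat stood apart in 12, against 14.2% of all genes. Uqcrh, a subunit of complex III, read 3785, 4789, 6362 and 4781, a difference of 0.75. Ribosomal protein genes had a median of 0.23 over 32 genes, 26 of them positive. Of the 32, 5 were past 1.5-fold upwards and 0 downwards, against 8.79% and 8.89% of all genes. A/J low-fat stood apart in 6 of the 32, against 14.3% of all genes. Rps24 led with 1.02, yet its 3 further probe sets gave 0.06, -0.44 and -0.04.

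Circadian clock genes had a median of -0.45 over 18 genes, 7 of them past 1.5-fold downwards and 2 upwards, against 8.89% and 8.79% of all genes. With a floor of 200 the median was -0.22. Per2, a repressor of the clock, read 165, 104, 81.5 and 122, a difference of -0.96 or lower, with A/J low-fat high. Arntl, which opposes the Per genes in the cycle, differed by 0.72, from 174, 308, 611 and 653. Heat shock genes had a median of -0.33 over 21 genes, 6 at least 1.5-fold lower and none higher, against 8.89% and 8.79% of all genes. C57BL/6J high-fat stood apart in 6, against 9.66% of all genes. Hspa8, the constitutive Hsc70 chaperone, read 9522, 8440, 10222 and 13229, a difference of -0.55, but its further probe sets ran from -1.67 to 1.73. Serpinh1, the collagen chaperone, read 282, 281, 269 and 441, a difference of -0.72 with a second probe set at -1.59. Hsp90aa1, an inducible Hsp90, read 2331, 2529, 2798 and 4128, a difference of -0.44. C57BL/6J high-fat was the high array in these 3.

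**Figure D4:**
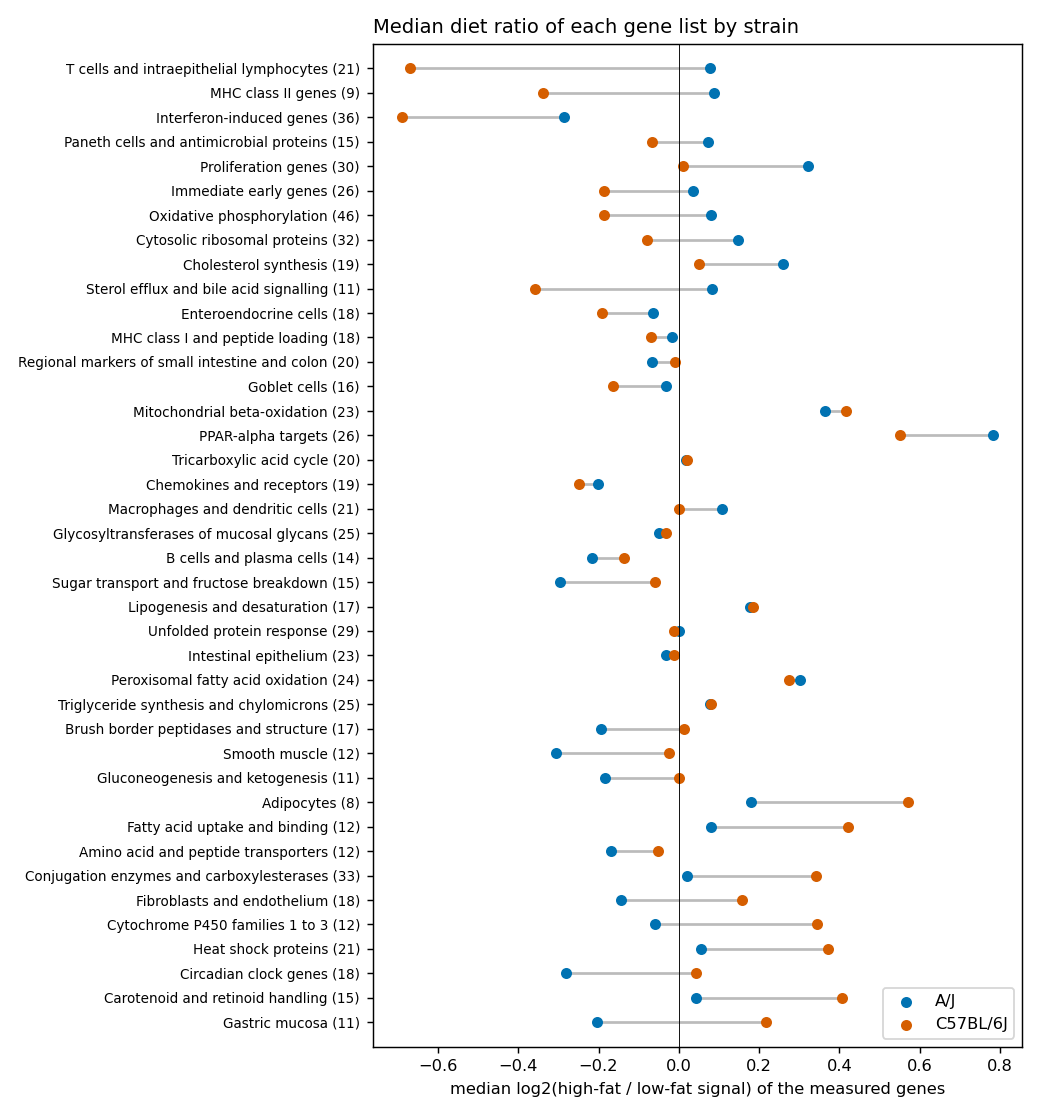
Median log2 of the high-fat over low-fat signal for each gene list with at least 8 measured genes, A/J in blue and C57BL/6J in orange, ordered by the median difference of diet ratios, with the number of measured genes in brackets. T cell genes show the widest positive gap (0.08 and -0.67), PPAR-alpha targets sit far right in both strains (0.78 and 0.55), and the pancreatic acinar list (-4.65 and 0.63) is left out for scale.

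Several of the largest single differences lay outside these groups or at the edge of them. Slc34a2, the apical sodium-phosphate transporter of the small intestine, read 773 and 2381 in A/J, and 2795 and 1857 in the other strain. Its difference of 2.21 was the highest with all signals above the floor, and A/J low-fat was the low array. Gpx2, the glutathione peroxidase of the gut epithelium, read 888, 2096, 3534 and 3242, a difference of 1.36 with the same array low. Pyy, the satiety peptide of enteroendocrine L cells, read 250, 475, 532 and 353, 1.90-fold higher on high-fat in A/J and 1.51-fold lower in C57BL/6J. Its difference was 1.52, with no single array, while the enteroendocrine list as a whole had a median of 0.17. Bcl2l15, a Bcl-2 family member, read 402, 1420, 715 and 827, a difference of 1.61 with no single array.

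Reg2, a regenerating protein of pancreas and gut, read 602, 222, 7205 and 9288, a difference of -1.81 on top of a far larger gap between strains, with no single array. Reg3d, a relative, read 289, 159, 447 and 833, a difference of -1.76, also with no single array. Herpud1, of the unfolded protein response, read 2884, 1652, 881 and 1898, a difference of -1.91 with C57BL/6J low-fat low. A second probe set gave -0.58, and the unfolded protein response list had a median of -0.04. Opn3, an opsin found outside the eye, read 363, 490, 115 and 574, a difference of -1.89 with the same array low. Nupr1, a stress-induced nuclear protein abundant in pancreas, read 181, 127, 193 and 483, a difference of -1.83 with C57BL/6J high-fat high, and a second probe set gave -0.32.

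The single largest positive value had the weakest footing. Defa31, a Paneth cell defensin, read 214, 17160, 5.84 and 51.5, so that A/J high-fat was 80.0-fold above A/J low-fat. Both C57BL/6J signals were under the floor, and the difference between the strains is therefore not determined. Its probe set is of a type shared among near-identical defensin genes, and there is no other for the gene. The Paneth cell and antimicrobial list held members on either side of 0. Of its 15 measured members 3 were past 1.5-fold upwards and 2 downwards, against 8.79% and 8.89% of all genes, with a median of 0.33. Besides Defa31, those upwards were Pla2g2a, a bactericidal phospholipase (1.20), and Mmp7, which activates defensins (0.66), and those downwards were Reg2 (-1.81) and Reg3d (-1.76).

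Read along the other axis, a difference of diet ratios is also the change in the strain gap between the diets. The strains lay closer on high-fat than on low-fat for 56.4% of all measured genes and for 182 of the 284 genes 2-fold apart outside the acinar and gastric lists, or 64.1%. T cell genes were at least 1.5-fold higher in C57BL/6J than in A/J for 13 of 21 members on low-fat and for 2 on high-fat, where all genes gave 9.23% and 6.88%. Interferon-induced genes gave 23 of 36 and 11. Ribosomal protein genes gave 8 of 32 and 1, and proliferation genes 9 of 30 and 1. In the other direction, conjugating enzymes favoured A/J by 1.5-fold or more in 15 of 33 cases on low-fat and in 8 on high-fat, where all genes gave 10.9% and 8.37%. Heat shock genes did the reverse: 6 of 21 favoured C57BL/6J by that much on low-fat, and 12 did on high-fat. In these lists apart from heat shock genes, fewer members were 1.5-fold apart in the stated direction on high-fat. They are a selection, and other lists went the other way. The strains lay closer on high-fat for 2 of 9 MHC class II genes and 5 of 14 B cell genes. The same held for 7 of 15 Paneth cell genes, 3 of 11 gastric genes and 1 of 23 acinar genes, against 56.4% of all genes.

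A second probe set of the same gene, read on the same 4 arrays, gives the one check the files allow, although it checks the probe and not the mice. Of the 308 genes, 71 had another measured probe set. In 49 of the 71 it had the same sign, in 21 it was at least 1.5-fold in the same direction and in 2 it was 1.5-fold in the opposite one. Outside the acinar and gastric lists the counts were 40 (64.5%) and 12 of 62, with 2 opposite. By direction, 26 genes higher in A/J gave 21 with the same sign and 5 at least 1.5-fold the same way. The 45 lower genes, which include the acinar and gastric ones, gave 28 and 16. Over all 2878 genes with another measured probe set the sign was the same in 1600 (55.6%), and 343 were at least 1.5-fold the same way in it. The genes were picked as extreme in the first probe set, so a smaller value in the second follows in part from that choice. Genes that kept a 2-fold difference in both included Scarb1 (-1.98 and -2.09), Stk39, a kinase regulating ion transport (-1.33 and -1.24), and Slc39a3, a zinc transporter (1.10 and 1.18). The pancreatic genes Cela3b, Sycn, Prss2 and Clps also did. Cd8a gave 1.01 and 1.42, but both A/J signals of its second probe set were under the floor, so the 1.42 is not determined. Genes with no such repeat included Strbp (1.67 and 0.05), Esf1 (1.55 and 0.12) and Gid4 (-1.75 and 0.50). The same array stood apart in the second probe set for 16 of the 51 genes that had one in the first, and for 7 of 42 (16.7%) outside those lists, where all genes gave 230 of 1426 (16.1%).

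**Figure D5:**
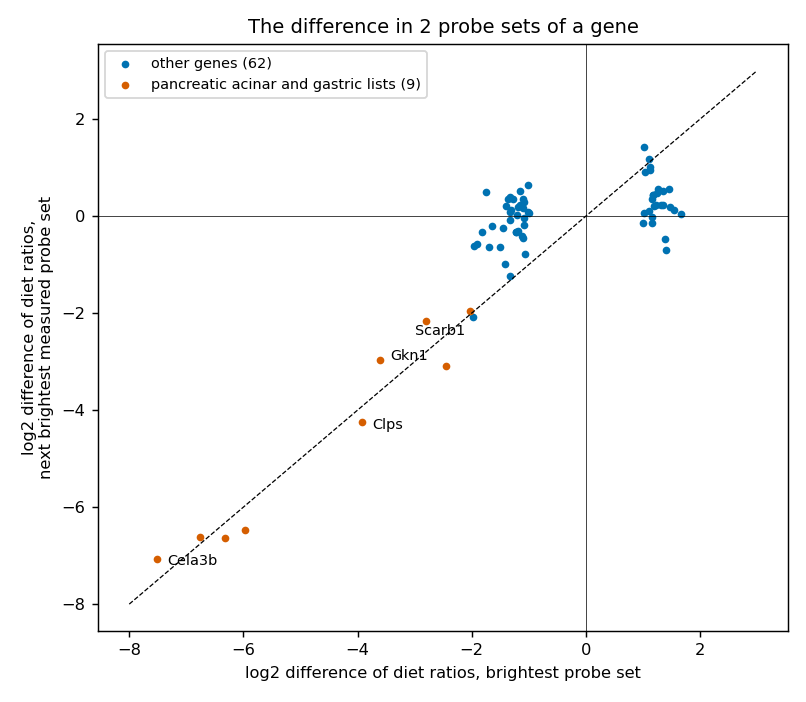
The difference of diet ratios, on the log2 scale, in the brightest probe set (x axis) and the next brightest measured probe set (y axis) of 71 genes at least 2-fold apart. The 9 acinar and gastric genes lie along the dashed line of equal values, as does Scarb1 (-1.98 and -2.09), while most of the other 62 lie nearer to 0 on the y axis.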

How the data were processed

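Mucosal RNA from pools of 2 mice was measured on 4 arrays, 1 per strain and diet. The deposited values are intensity values on a linear scale, made by the authors with Microarray Suite 5.0, per the labels' protocols and the submitters' processing notes, with the scaling target not given in the sources used here. The arrays had different medians (57.1, 53.8, 48.6 and 43.9), so each was scaled to a 2% trimmed mean of 500 over 22626 non-control probe sets. The factors were 2.72, 2.80, 3.08 and 3.41, and 58.6% to 60.3% of probe sets reached the floor of 100. Of these probe sets 20380 had 1 gene symbol, 691 several and 1555 none, from the platform annotation, and 20351 matched a RefSeq gene number. A gene was its brightest probe set. Differences, bounds and the array standing apart were computed in Python 3.11.15 with pandas 2.3.3 and checked on simulated data. Of 1116 listed gene names 934 were found, in 44 lists. Named genes were the 15 highest and lowest differences above the floor, the 5 brightest at the floor each way, genes of opposite direction at least 2.5-fold apart, and up to 4 per list, with further members of the same lists added after their values were seen. The members and lists were chosen with earlier results of these data known. The number of arrays limits the precision.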

Additional observations from a re-analysis of the deposited data

Results flagged for a closer look

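A signal outside the measured genes differed between arrays: 18S ribosomal RNA, measured by a 5′ control probe set that was in no comparison, read 11010 in the low-fat pool of C57BL/6J, against 1675 in its high-fat pool and 218 and 84.4 in the A/J pools. The part of this in the genes for which C57BL/6J low-fat stood apart was not tested.

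For 15 genes the single pool of A/J and the single pool of C57BL/6J moved in opposite directions with diet by at least 1.5-fold each and lay the furthest apart. The difference of diet ratios was not tested, with 1 array per group. It was -7.52 for Cela3b, -7.36 for Cpa1, -7.28 for Gkn2, -6.94 for Cpb1, -6.81 for Ctrl, -6.76 for Sycn and -6.56 for Ctrb1. It was -6.34 for Cel, -5.99 for Pnliprp1, -5.98 for Prss2, -5.50 for Rnase1, -4.69 for Cela1, -4.34 for Gp2, -3.93 for Clps and -3.54 for Tff2. For Cela3b, Cpa1, Gkn2, Cpb1, Ctrl, Sycn, Pnliprp1, Gp2 and Tff2 a signal lay under the floor, and the value is an upper limit: the difference is that low or lower. A/J high-fat stood apart in all 15 genes except Gkn2, where it was C57BL/6J high-fat. The call for Gkn2 depends on the floor, because its A/J high-fat and C57BL/6J low-fat signals lay under it. All 15 are in the pancreatic acinar or gastric lists.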

How the results depend on the processing

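No paired analysis was possible because each group has 1 array, and leaving out an array leaves no difference of diet ratios to compute. Of the 308 genes 2-fold apart, 285 stayed so in the same direction after quantile normalization, 261 with no scaling, 303 with a floor of 50, 161 with a floor of 200, 188 with a pseudocount of 50 and no floor, 209 of 290 with the mean of all probe sets and 229 of 243 without shared probe sets. Genes 2-fold apart with the higher ratio in A/J numbered 137, but 234 with no scaling and 81 with a floor of 200. Those 2-fold lower numbered 171, but 84 with that floor, and those of opposite direction 59, but 38. The count with A/J low-fat apart was 57, but 27 with a floor of 200, 35 with a pseudocount of 50 and 29 when the gap had to exceed 2 ranges. With A/J high-fat apart it was 57, but 30, 37 (without the acinar and gastric lists, an alternative chosen after seeing the data) and 32. With C57BL/6J low-fat it was 49, but 15 under the rule of 2 ranges. With C57BL/6J high-fat it was 30, but 46 with no scaling, 46 with a floor of 50, 12 with a floor of 200, 19 with the mean of all probe sets and 12 under the rule of 2 ranges. Ighm turned from -1.34 to 0.12 with the mean of all probe sets, and without shared probe sets 5 of the 308 turned: Bad (-1.32 to 0.13), Bet1l (1.15 to -0.08), Clcn5 (to 0.06), Gid4 (-1.75 to 0.50) and Ptcd1 (-1.28 to 0.36). A floor of 200 moved the medians of the gastric (-0.74 to 0.00), carotenoid (-0.61 to -0.33), clock (-0.45 to -0.22), cholesterol (0.21 to 0.08), fatty acid uptake (-0.21 to -0.12), immediate early (0.29 to 0.05) and PPAR-alpha (0.02 to 0.22) lists. For the floors, the construction lowers or raises the ratios of dim genes, and for the other shifts the cause was not tested. With 1 array per group no difference here has an error, and the dim genes, which cross 2-fold most often, are the least certain.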

Other observations

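Ins2, insulin, is made by the islets of the pancreas and is not in the acinar list. It read 401 and 14.0 in A/J on low-fat and high-fat, and 146 and 275 in C57BL/6J, a difference of -2.92 or lower, with its lowest signal on the array where the acinar enzymes were lowest. It was chosen after its values were seen.

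Immunoglobulin kappa variable genes, also chosen after their values were seen, did not share a direction. Igkv14-111 read 2116, 770, 1563 and 229, lower on high-fat in both strains, and differed by 1.31 with C57BL/6J high-fat low. Igkv4-72 read 153, 346, 576 and 375, and differed by 1.80 with A/J low-fat low. Igkv8-30 read 8702, 7051, 9543 and 7308 and differed by 0.08.

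Saa1, an acute-phase serum amyloid A protein, read 1.90 and 7.01 on the A/J arrays against 430 and 116 on those of C57BL/6J. Both A/J signals were under the floor, so the difference of diet ratios is not determined, and C57BL/6J low-fat stood apart.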
